A study of Mus musculus with 19 samples.

Results

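The passage of Tet3-/- mouse embryonic stem cells (mESC) to epiblast-like cells (EpiLC) was described from 7 of the 19 RNA-seq libraries of the series. The members are the 4 libraries labelled XX mESC tet3ko, mutants #1 to #4, and the 3 labelled XX epiblast tet3ko, mutants #1, #3 and #4. They were chosen by label and not by any measured value. All 7 carry the genotype Tet3-/- on the LF2 strain, which is also the strain of the 6 wild-type XX libraries (3 mESC and 3 EpiLC) used for comparison. The mESC grew in N2B27 medium with inhibitors of GSK3 and of MEK1/2 (together called 2i) and with LIF. The EpiLC had been given FGF5 and Activin A, without LIF, for 5 days. The series asks whether TET3 is needed for this step. Nothing in the labels says whether the mutant numbers are clones, cultures or repeats of 1 clone, so the p-values measure the spread between these libraries, which may be technical.

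As background, mESC in 2i and LIF resemble the naive epiblast of the embryo before implantation. Oct4 (Pou5f1) and Sox2 hold their identity together with naive factors such as Nanog, Esrrb, Klf4 and Tfcp2l1, while ERK signalling is blocked and DNA methylation is low. Given FGF and Activin, such cells pass into a formative state that resembles the epiblast after implantation. Naive factors are shut down, Fgf5, Pou3f1 and the de novo methyltransferases come on, germline promoters gain methylation and XX cells begin to silence 1 X chromosome. TET enzymes oxidise 5-methylcytosine, the first step of active demethylation.

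Levels are given as scaled TPM. TPM is relative transcript abundance corrected for transcript length, here summed per gene and divided by a median-of-ratios factor for each library. The factors ran from 0.691 in EpiLC #4 to 1.40 in EpiLC #3. Between 11128 and 12834 genes per library reached a TPM of 1, and the small RNA gene Rn7s1 alone took 28.5 to 43.7% of all TPM. TPM does not keep sequencing depth, so the depth is unknown. EpiLC mutant #3 stood apart. Among 7577 genes with a mean of at least 5 in EpiLC, it was at least 1 log2 unit above the mean of the other EpiLC libraries in 199 and at least 1 unit below it in 380. The same counts were 54 and 83 for #1, and 36 and 66 for #4. The mean is over all EpiLC libraries, so a gene can pass through the library in which it is high. List medians are therefore also given without it, over the same genes, with the counts of calls where these changed. The mESC libraries formed a milder split, with 42 genes at least 1 unit apart between #1 and #4, 75 between #2 and #3, and 194 to 228 for the 4 pairs across these.

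Tet3 (chromosome 6, 83362373-83459084, GRCm38) was low in every library. On a scale shared by the 13 LF2 libraries it read 0.457 to 0.764 in Tet3-/- mESC and 0.573 to 1.12 in XX mESC, which overlap. In EpiLC it read 0.969 to 1.22 in Tet3-/- and 1.30 to 1.79 in XX cells, which do not. The deleted part of the gene is not named in the labels, so a sum over the whole gene does not check the genotype.

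Of 12731 genes tested with limma, 46.3% changed from mESC to EpiLC at a Benjamini-Hochberg adjusted p under 0.05, with 2827 (22.2%) higher and 3063 (24.1%) lower in EpiLC. Both shares are the background for the count of every list below. In 24.6% of genes all EpiLC libraries were above, and in 26.4% below, all mESC libraries. Fold changes are differences of log2(scaled TPM + 1), which understate the change of low genes. Their median over all genes tested was 0.00523, and those below are relative to it. Without EpiLC #3, 52.2% changed, with 3239 (25.4%) higher and 3410 (26.8%) lower. With TPM left unscaled the median moved to -0.18, with 1312 rises and 2474 falls, so that 34.7% of calls were rises in place of 48.0%.

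The naive factors fell. Of 14 listed, 13 passed the filter and 12 of these fell, with a median log2 fold change of -3.73 (without EpiLC #3, 13 fell and the median was -3.75), where 24.1% of all genes fell. Gbx2 was too low to be tested. Nanog, a homeodomain factor that stabilises the naive state, read 190.0, 159, 174 and 185 scaled TPM in mESC #1 to #4 and 21.6, 26.3 and 24.6 in EpiLC #1, #3 and #4 (log2 fold change -2.83, SE 0.12, adjusted p = 1.5e-06). The orphan receptor gene Esrrb read 90.7, 106, 104 and 90.0 in mESC and 2.00, 5.02 and 3.65 in EpiLC (log2 fold change -4.49, SE 0.22, adjusted p = 2.63e-06). For both genes every mESC library was far above every EpiLC library. The Krüppel-like factors Klf4 (41.9 to 54.9 in mESC against 0.998 to 2.50 in EpiLC, log2 fold change -4.36, adjusted p = 2.34e-06) and Klf2 (28.6 to 34.4 in mESC against 0.315 to 1.12 in EpiLC, log2 fold change -4.23, adjusted p = 1.05e-06) fell. Tfcp2l1, a target of LIF signalling in naive cells, kept a few scaled TPM (41.8 to 72.1 in mESC against 3.14 to 3.68 in EpiLC, log2 fold change -3.73, adjusted p = 3.33e-06). Prdm14, which represses FGF signalling and methylation in naive cells, fell too (10.5 to 11.8 in mESC against 0.0865 to 0.282 in EpiLC, log2 fold change -3.40, adjusted p = 6.86e-07). Klf5 was the tested member that was not called (log2 fold change -0.20, adjusted p = 0.672). It read 8.97, 10.8, 10.5 and 9.71 in mESC and 5.14, 17.8 and 6.57 in EpiLC, so that EpiLC #3 was the highest of all 7 libraries and the other EpiLC libraries the lowest. Without #3 it was called lower (log2 fold change -0.68, adjusted p = 0.00392). In bulk libraries such as these, fewer cells of a type and less RNA per cell cannot be told apart.

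The core pair of pluripotency factors parted. Pou5f1 read 249, 322, 324 and 228 in mESC and 175, 247 and 239.6 in EpiLC, with overlapping groups (log2 fold change -0.35, SE 0.20, adjusted p = 0.19). Sox2, its partner on shared enhancers (chromosome 3, 34650405-34652461), read 99.0, 102, 89.6 and 92.5 in mESC and 6.74, 7.10 and 8.41 in EpiLC (log2 fold change -3.53, SE 0.12, adjusted p = 6.86e-07). No EpiLC library came near any mESC library for Sox2, while EpiLC #3 and #4 matched the lower mESC libraries for Pou5f1. The core list as a whole was mixed, with 3 rises and 3 falls among 10 genes, where 22.2% of all genes rose and 24.1% fell. The median was 0.36 (4 rises, 3 falls and 0.06 without #3). Lin28a, an RNA-binding protein that blocks let-7 maturation, read 0.992, 2.47, 1.92 and 1.48 in mESC and 85.8, 67.3 and 83.9 in EpiLC (log2 fold change 4.90, SE 0.20, adjusted p = 9.85e-07). The chromatin factor Utf1 also rose (1.75 to 4.00 in mESC against 18.8 to 27.9 in EpiLC, log2 fold change 2.61, adjusted p = 3.99e-05).

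Formative genes mostly rose. Of 14 listed, 13 were tested, 10 rose and 1 fell, with a median of 2.08 (1.93 without #3), where 22.2% of all genes rose. Fgf5, a growth factor used as the marker of this state, was at most 0.0174 in mESC and 4.57, 31.2 and 5.19 in EpiLC (log2 fold change 3.36, SE 0.54, adjusted p = 0.00126). EpiLC #3 was far above the others, and without it the rise was smaller (log2 fold change 2.47, adjusted p = 1.01e-05). The POU factor gene Pou3f1 was at most 0.0252 in mESC and 3.87, 12.9 and 4.94 in EpiLC (log2 fold change 2.86, adjusted p = 0.000172), again highest in #3. The de novo DNA methyltransferase gene Dnmt3b read 4.07, 5.76, 7.18 and 4.74 in mESC and 24.9, 44.6 and 31.4 in EpiLC (log2 fold change 2.41, SE 0.23, adjusted p = 6.2e-05), and Dnmt3a rose beside it (0.706 to 1.38 in mESC against 8.07 to 10.5 in EpiLC, log2 fold change 2.30, adjusted p = 1.4e-05). Lin28b, the sister gene of Lin28a, rose by a log2 fold change of 2.62, the SOX factors Sox4 and Sox3 by 2.16 and 1.82, and the zinc finger factors Zic2 and Zic5 by 2.08 and 2.02. Otx2, which directs Oct4 to new enhancers as cells leave the naive state, did not pass the test. It read 22.6, 15.6, 18.2 and 20.5 in mESC and 20.5, 15.9 and 18.2 in EpiLC, with interleaved libraries (log2 fold change -0.07, SE 0.15, adjusted p = 0.742). Foxd3, a forkhead repressor, was the member that fell (3.60 to 4.66 in mESC against 0.0812 to 0.529 in EpiLC, log2 fold change -2.04, adjusted p = 2.17e-05).

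**Figure D1:**
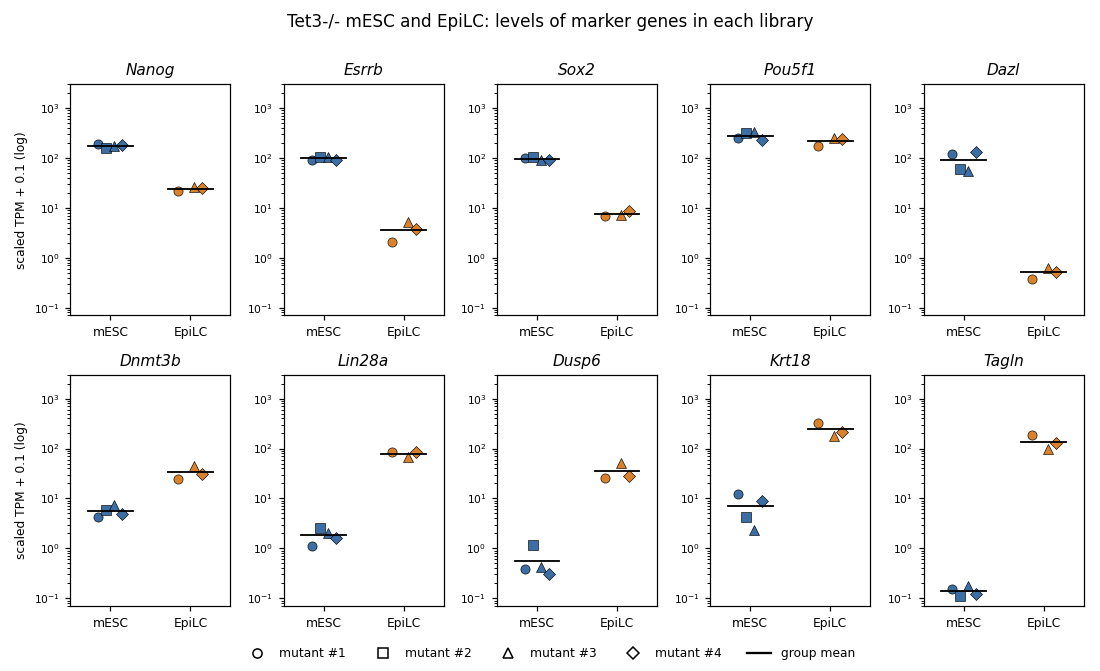
Scaled TPM plus 0.1 (log axis) of 10 genes in each of the 4 Tet3-/- mESC (blue) and 3 Tet3-/- EpiLC libraries (orange), with symbols for the mutant number and lines for the group means. Nanog, Esrrb, Sox2 and Dazl sit lower in every EpiLC library, Dnmt3b, Lin28a, Dusp6, Krt18 and Tagln higher, and Pou5f1 overlaps.

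Genes that respond to ERK mostly rose. As background, the MEK inhibitor of 2i holds ERK off, and active ERK induces its own inhibitors, the Sprouty, Spred and Dusp proteins. Of 12 tested members (15 listed), 10 rose and 1 fell, where 22.2% of all genes rose and 24.1% fell. The median was 1.93 (1.81 without #3). Dusp6, the phosphatase that inactivates ERK, read 0.286, 1.05, 0.317 and 0.199 in mESC and 26.2, 52.1 and 27.4 in EpiLC (log2 fold change 4.59, SE 0.28, adjusted p = 6.29e-06). Its relative Dusp4 was at most 0.122 in mESC and 9.83, 27.4 and 10.0 in EpiLC (log2 fold change 3.8, adjusted p = 3.35e-05). Both were about as high in EpiLC #1 as in #4 and highest in #3. The inhibitor Spry1 (0.407 to 1.13 in mESC against 6.55 to 10.9 in EpiLC, log2 fold change 2.54, adjusted p = 2.44e-05) and the immediate early gene Ier3 (2.12 to 2.70 in mESC against 11.7 to 24.6 in EpiLC, log2 fold change 2.51, adjusted p = 5.12e-05) rose. The ETS factor Etv4 read 0.125, 2.34, 0.252 and 0.0825 in mESC and 4.16, 21.2 and 7.49 in EpiLC (log2 fold change 2.72, adjusted p = 0.00387). Its rise without #3 was 2.09.

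Among FGF ligands and receptors, 4 of 5 tested genes rose and 1 fell (10 listed), where 22.2% of all rose and 24.1% fell. The median was 2.01 (2.36 without #3). The one that fell was Fgf4, the autocrine ligand of mESC (34.4 to 44.2 in mESC against 3.74 to 5.51 in EpiLC, log2 fold change -2.92, adjusted p = 3.07e-06). The receptor Fgfr1 rose (6.14 to 8.99 in mESC against 17.7 to 29.0 in EpiLC, log2 fold change 1.47, adjusted p = 0.000442). Fgfr2 read 2.43, 3.25, 3.05 and 2.64 in mESC and 22.0, 8.37 and 16.1 in EpiLC (log2 fold change 2.01, adjusted p = 0.000487), with EpiLC #3 the lowest of the 3. Fgfbp1, a carrier that releases FGFs from the matrix, had the highest fold change of the list (1.15 to 3.87 in mESC against 59.3 to 69.1 in EpiLC, log2 fold change 4.21, adjusted p = 1.01e-05).

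Etv5, the close relative of Etv4, was the 1 ERK-response gene that fell, and its transcripts changed places. As a gene it read 43.8, 57.7, 46.0 and 45.4 in mESC and 12.9, 36.3 and 17.7 in EpiLC (log2 fold change -1.20, SE 0.30, adjusted p = 0.0113). Leaving out EpiLC #4 and filtering anew took the adjusted p to 0.0523. In mESC most of its TPM belonged to the transcript Etv5-203 (chromosome 16, 22381316-22436514, minus strand, GRCm38), with 79.8, 69.1, 74.0 and 79.1% in #1 to #4. In EpiLC that share was 0.689, 0 and 0.541%. Etv5-201 (22381309-22439719), whose start lies 3205 bases further upstream, held 97.5, 99.2 and 97.8%. Both are annotated as protein-coding. In TPM as deposited, Etv5-203 read 33.9, 41.1, 38.4 and 41.8 in mESC and 0.0701, 0 and 0.0662 in EpiLC. Etv5-201 read 8.40, 18.4, 13.4 and 11.0 and then 9.93, 50.4 and 12.0. The longer transcript was thus present at the start in all 4 mESC libraries, and overlapped between the states except in EpiLC #3. In the wild-type XX libraries the share of Etv5-203 was 65.6 to 72.9% in mESC and 0 to 3.8% in EpiLC. Shares are given without a test, and they rest on how reads were assigned to transcripts before the table was deposited.

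Of 110 list genes whose mean TPM reached 5 in both states, 4 had a transcript whose mean share moved by at least 30 percentage points with no overlap between libraries. Besides Etv5 these were Tpm1, Dnmt3b and Cald1. Tpm1-213 was listed at 0 in all mESC libraries and took 21.9, 45.3 and 24.5% of Tpm1 in EpiLC. Dnmt3b-202 took 0 to 14.3% of Dnmt3b in mESC and 50.4, 23.3 and 47.0% in EpiLC. Cald1-203, of the actin-binding caldesmon gene, took 78.6 to 88.7% in mESC and 29.2, 50.1 and 34.9% in EpiLC.

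**Figure D2:**
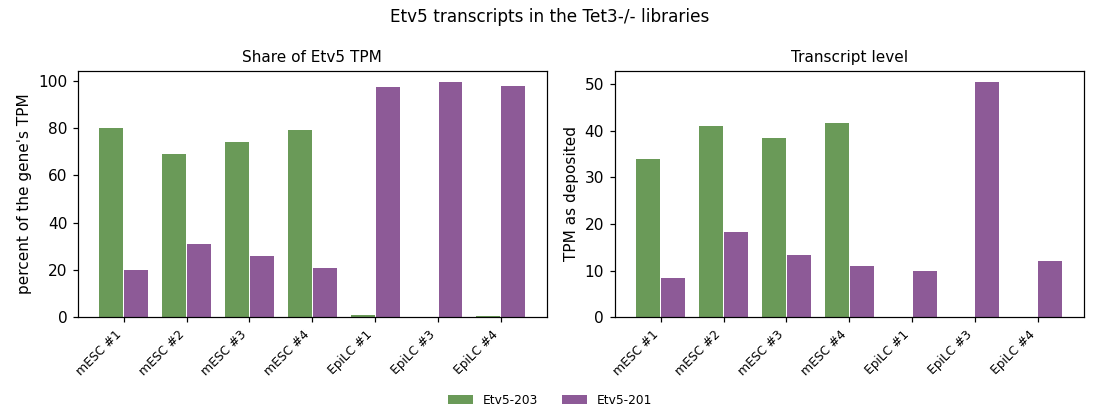
Share of the gene's TPM in percent (left) and deposited TPM (right) of the Etv5 transcripts Etv5-203 (green) and Etv5-201 (purple) in each Tet3-/- library. Etv5-203 holds most of the gene in the 4 mESC libraries and under 1% in the 3 EpiLC libraries.

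LIF and STAT3 genes went both ways. LIF is left out of the EpiLC medium. Of 10 genes 4 rose and 3 fell (median 0.0901, or 0.18 without #3), where 22.2% of all genes rose and 24.1% fell. The receptor subunits Lifr (7.35 to 9.27 in mESC against 1.01 to 1.64 in EpiLC, log2 fold change -1.93, adjusted p = 1.58e-05) and Il6st (12.2 to 15.8 in mESC against 5.00 to 6.45 in EpiLC, log2 fold change -1.09, adjusted p = 0.000283) fell. Of the STAT3 targets, Junb rose (1.54 to 3.71 in mESC against 15.9 to 27.5 in EpiLC, log2 fold change 2.63, adjusted p = 5.32e-05), and Socs3 read 2.46, 3.54, 4.64 and 1.49 in mESC and 4.90, 2.82 and 3.99 in EpiLC, with overlapping groups (log2 fold change 0.32, adjusted p = 0.381). Also in the list, Bcl3 fell (1.08 to 4.22 in mESC against 0.435 to 0.558 in EpiLC, log2 fold change -1.12, adjusted p = 0.0128). Pim3 and Cish rose (log2 fold changes 1.08 and 0.85, adjusted p = 0.00354 and 0.00251), and Pim1 was not called (log2 fold change -0.38, adjusted p = 0.211).

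Wnt genes were split by EpiLC #3. The GSK3 inhibitor of 2i mimics a Wnt signal. Of 8 tested genes (15 listed), 3 rose and 1 fell (median 0.18), where 22.2% of all genes rose and 24.1% fell. Without #3, 3 rose and 3 fell (median -0.02). The direct target Axin2 read 4.84, 7.50, 7.25 and 5.49 in mESC and 2.61, 7.42 and 2.41 in EpiLC, and was called lower only when #3 was left out (log2 fold change -1.02, adjusted p = 0.00261). Sp5, another direct target, read 1.41, 2.16, 1.38 and 1.52 in mESC and 0.042, 9.59 and 0.122 in EpiLC and was called lower without it (log2 fold change -1.22, adjusted p = 0.000622). Notum, a secreted Wnt inhibitor that is itself a target, fell in all 3 EpiLC libraries (3.04 to 8.83 in mESC against 0.0598 to 0.284 in EpiLC, log2 fold change -2.45, adjusted p = 0.000244). The ligand Wnt3 was at most 0.252 in mESC and 5.13, 12.7 and 5.02 in EpiLC (log2 fold change 2.77, adjusted p = 9.17e-05).

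In the Nodal and Activin list 6 of 13 tested genes rose and 2 fell, where 22.2% of all genes rose and 24.1% fell. The median was 0.74. Without #3, 5 rose and 2 fell (median 0.0873). Activin itself was part of the EpiLC medium. Lefty1, a Nodal antagonist, read 0.0519, 1.58, 0.0595 and 0.192 in mESC and 6.60, 32.0 and 6.49 in EpiLC (log2 fold change 3.18, adjusted p = 0.00185, and 2.42 without #3). Nodal read 14.1, 21, 18.4 and 18.1 in mESC and 23.4, 50.8 and 25 in EpiLC (log2 fold change 0.77, adjusted p = 0.0419). That call was lost when any 1 mESC library or EpiLC #3 was left out, with adjusted p-values of 0.0547 to 0.101. The fold change was 0.66 to 0.84 without an mESC library and 0.42 without #3, where filtering anew gave 0.46 and kept the call (adjusted p = 0.0419). Gdf3, a related ligand, fell (12.9 to 18.6 in mESC against 3.00 to 4.68 in EpiLC, log2 fold change -1.77, adjusted p = 7.73e-05). Of 7 tested BMP and Id genes (12 listed) 4 rose and 1 fell (median 0.53, or 0.43 without #3). The ligand Bmp4 read 1.87, 1.97, 0.975 and 0.888 in mESC and 8.64, 3.41 and 3.63 in EpiLC (log2 fold change 1.29, adjusted p = 0.00826). The HLH inhibitor Id2 read 6.96, 3.03, 4.61 and 4.79 in mESC and 19.8, 28 and 26.5 in EpiLC (log2 fold change 2.16, adjusted p = 0.000119), while its relative Id4 fell (1.34 to 3.05 in mESC against 0.201 to 0.577 in EpiLC, log2 fold change -1.08, adjusted p = 0.00273).

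Every gene of the epithelial list rose. All 13 were called higher, where 22.2% of all genes rose, with a median of 2.96 (3.23 without #3). Their summed level was 109 to 148 scaled TPM in mESC and 922 to 1122 in EpiLC. Keratin 18 (Krt18) read 12.4, 4.22, 2.27 and 8.76 in mESC and 327, 179.8 and 216 in EpiLC (log2 fold change 5.09, SE 0.46, adjusted p = 5.02e-05). Its partner Krt8 read 10.1, 7.18, 6.47 and 8.07 in mESC and 177, 253 and 142 in EpiLC (log2 fold change 4.39, adjusted p = 2.62e-06). Krt19 read 1.69, 0.898, 0.294 and 1.68 in mESC and 66.7, 164 and 78.0 in EpiLC (log2 fold change 5.55, adjusted p = 8.66e-06). Within EpiLC the 3 keratins were not ordered alike, since #1 was highest for Krt18 and #3 for Krt8 and Krt19. The tight junction protein Cldn6 rose (1.17 to 3.29 in mESC against 78.9 to 115 in EpiLC, log2 fold change 4.86, adjusted p = 3.26e-06). Esrp1, a splicing regulator of epithelial isoforms, was at most 0.359 in mESC and 18.9, 14.6 and 16.3 in EpiLC (log2 fold change 3.86, adjusted p = 9.01e-07). The adhesion genes Cdh1 (41.0 to 53.3 in mESC against 89.5 to 129.9 in EpiLC, log2 fold change 1.18, adjusted p = 0.000457) and Epcam (7.18 to 14.8 in mESC against 62.3 to 119 in EpiLC, log2 fold change 2.96, adjusted p = 7.48e-05) were already present in mESC and rose further.

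All 12 tested genes of the contractile list (14 listed) rose as well, where 22.2% of all genes rose. The median was 2.89 (3.15 without #3). Their summed level was 92.4 to 112 in mESC and 890.2 to 1597 in EpiLC. Transgelin (Tagln), an actin-binding protein, was at most 0.0731 in mESC and 184, 97.9 and 129.6 in EpiLC (log2 fold change 7.01, SE 0.20, adjusted p = 4.56e-07). Tropomyosin 1 (Tpm1), which lies along actin filaments, read 42.7, 30.6, 30.4 and 36.0 in mESC and 932, 461 and 723 in EpiLC (log2 fold change 4.25, adjusted p = 4.91e-06). Calponin 1 (Cnn1) was at most 0.111 in mESC and 7.33, 7.70 and 6.49 in EpiLC (log2 fold change 2.96, adjusted p = 1.04e-06). Of these, Tagln and Tpm1 were lowest among the EpiLC in #3, and Cnn1 was not. Smooth muscle actin (Acta2) was at most 0.0697 in mESC and 20.0, 1.98 and 4.92 in EpiLC (log2 fold change 2.81, adjusted p = 0.00332). EpiLC #1 was far above the others, and without it the fold change was 2.09. The myosin light chain Myl9 was at most 0.0745 in mESC and 13.9, 4.99 and 9.20 in EpiLC (log2 fold change 3.22, adjusted p = 3.51e-05). Both Acta2 and Myl9 were again lowest among the EpiLC in #3, though above every mESC library. Srf, the transcription factor that binds the CArG box in promoters of cytoskeletal genes, rose (4.08 to 5.09 in mESC against 9.69 to 13.2 in EpiLC, log2 fold change 1.18, adjusted p = 0.000176). So did vinculin (Vcl), which links actin to adhesions (6.47 to 7.37 in mESC against 29.6 to 46.2 in EpiLC, log2 fold change 2.31, adjusted p = 1.11e-05).

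RefSeq promoter sequences (GRCm38.p6, the 250 bases before the annotated start) were at hand for 11 of the 14 contractile genes. The CArG box, a run of A and T between CC and GG, was searched on both strands. It was found in 3 of these 11 (Srf, Vcl and Myl9) and in 1.47% of all 32851 promoters of that length. Listed genes were counted once each, by any of their promoters, and the share over all is per promoter. These 3 are shown with the box in capitals. The list was drawn up to hold contractile and SRF genes, so its share of boxes is not independent of that choice. All 12 tested genes of the list rose, whether or not a box was found. With no tested gene that did not rise, the list cannot show whether the box sets apart genes that rose.

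Srf, chr17:46556163-46556412, minus strand: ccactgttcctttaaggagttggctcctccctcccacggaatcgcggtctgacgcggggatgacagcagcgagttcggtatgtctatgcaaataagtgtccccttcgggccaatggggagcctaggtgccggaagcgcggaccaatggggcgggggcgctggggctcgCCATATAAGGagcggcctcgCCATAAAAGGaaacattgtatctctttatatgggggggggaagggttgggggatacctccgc

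Vcl, chr14:20929148-20929397, plus strand: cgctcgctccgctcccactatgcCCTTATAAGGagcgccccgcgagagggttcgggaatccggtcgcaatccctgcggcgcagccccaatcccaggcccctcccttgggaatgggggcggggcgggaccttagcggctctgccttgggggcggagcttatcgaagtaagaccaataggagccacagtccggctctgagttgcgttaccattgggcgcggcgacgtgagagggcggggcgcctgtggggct

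Myl9, chr2:156775214-156775463, plus strand: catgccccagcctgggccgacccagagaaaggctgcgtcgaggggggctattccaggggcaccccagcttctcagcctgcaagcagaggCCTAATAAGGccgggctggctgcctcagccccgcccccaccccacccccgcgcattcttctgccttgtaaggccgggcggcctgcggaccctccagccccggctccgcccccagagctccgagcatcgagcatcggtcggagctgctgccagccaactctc

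The Srf promoter holds 2 boxes, and those of Vcl and Myl9 hold 1 each. A match describes the letters of the window, not a bound site.

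The mesenchymal list was mixed. Of 6 tested members (12 listed), 3 rose and 1 fell, where 22.2% of all genes rose and 24.1% fell. The median was 1.38 (3 rises, 2 falls and 0.95 without #3). Zeb1, a repressor of Cdh1, fell (3.90 to 5.15 in mESC against 0.173 to 0.665 in EpiLC, log2 fold change -2.05, adjusted p = 2.74e-05). Sparc, a matrix protein, rose (24.8 to 29.2 in mESC against 125 to 185 in EpiLC, log2 fold change 2.46, adjusted p = 6.54e-06). The filament gene Vim read 22.6, 45.5, 43.9 and 24.0 in mESC and 57.1, 156 and 47.1 in EpiLC, with #3 far above the others (log2 fold change 1.19, adjusted p = 0.0519). It was called when EpiLC #4 was left out (log2 fold change 1.52, adjusted p = 0.0333), and without #3 the fold change was 0.67 (adjusted p = 0.12). Fibronectin (Fn1) read 65.7, 72.9, 56.1 and 105 in mESC and 37.3, 100.2 and 26.2 in EpiLC, and was called lower only without #3 (log2 fold change -1.20, adjusted p = 0.00711).

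**Figure D3:**
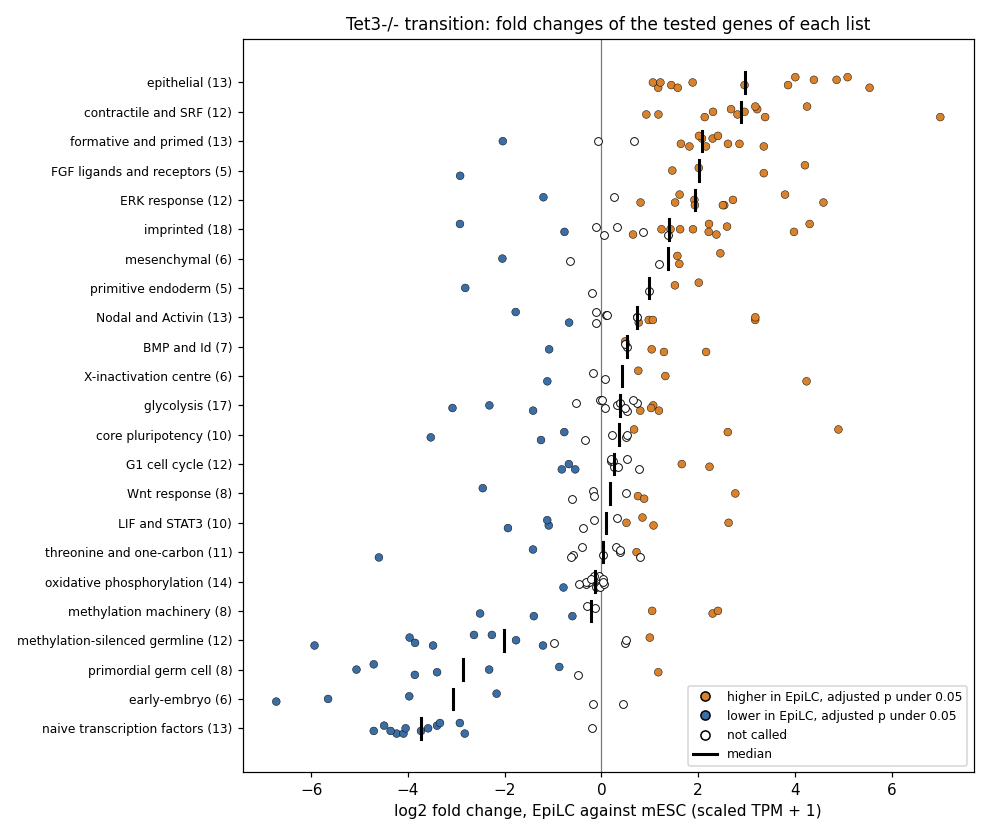
Log2 fold change from Tet3-/- mESC to EpiLC of each tested gene in the lists with at least 5 tested genes (number in brackets); filled points passed an adjusted p of 0.05, open points did not, and bars mark the medians. The epithelial and contractile lists lie wholly to the right and the naive list to the left apart from Klf5 near 0.

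Germline genes mostly fell. As background, the listed genes are kept silent by promoter methylation in somatic cells, and several are transcribed in hypomethylated naive cells. Of 12 tested (14 listed), 8 fell and 1 rose, with a median of -2.01, where 24.1% of all genes fell and 22.2% rose. Without #3, 7 fell and 2 rose (median -2.03). Dazl, an RNA-binding protein of germ cells, read 122, 60.7, 53.4 and 129 in mESC and 0.268, 0.531 and 0.42 in EpiLC (log2 fold change -5.93, SE 0.32, adjusted p = 3.61e-06). Among the mESC it was higher in #1 and #4 than in #2 and #3, the split described above. Hormad1, a protein of the meiotic chromosome axis, read 39.9, 18.0, 33.6 and 35.9 in mESC and 0.544, 0.603 and 2.34 in EpiLC (log2 fold change -3.97, adjusted p = 3.9e-05). Syce1, of the synaptonemal complex, read 23.6, 21.1, 19.2 and 23.0 in mESC and 0.864, 1.23 and 1.02 in EpiLC (log2 fold change -3.48, adjusted p = 7.26e-07). The ribosomal protein gene of the testis Rpl10l (54.4 to 72.7 in mESC against 2.61 to 4.70 in EpiLC, log2 fold change -3.85, adjusted p = 2.1e-06) and the kinase gene Stk31 (6.07 to 7.64 in mESC against 0.543 to 0.711 in EpiLC, log2 fold change -2.26, adjusted p = 4.54e-06) fell too. Mael, of the piRNA pathway, went the other way, with 3.25, 1.93, 1.15 and 2.31 in mESC and 4.43, 4.87 and 6.26 in EpiLC (log2 fold change 1.0, adjusted p = 0.00718). Sycp3, also of the synaptonemal complex, read 29.7, 7.72, 5.79 and 19.3 in mESC and 30.6, 4.95 and 39.0 in EpiLC (log2 fold change 0.50, adjusted p = 0.614). For Sycp3 mESC #1 and #4 and EpiLC #1 and #4 were high and the other 3 libraries low.

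All 14 germline genes had a RefSeq promoter. The E-box CACGTG, which reads the same on both strands, was in 8 of the 14 and in 6.02% of all promoters. In other lists it was found in 2 of 10 naive, 0 of 11 contractile and 0 of 10 epithelial genes with a promoter. The letters TTCCCGC, searched on both strands, were in 4 of the 14 and in 3.82% of all. A listed gene counted if any of its promoters held the match, while the share over all is per promoter. The list was drawn up to hold germline genes silenced by methylation, so its shares of matches are not independent of that choice. The median number of CG pairs in the 250 bases was 17.5 over the 16 promoters of the germline genes, 16.0 over 13 of the contractile genes, 9.5 over 12 of the epithelial genes and 6 over all promoters. The promoters of Hormad1, Stk31 and Mael are shown, with CACGTG in capitals, because all 3 hold it while the first 2 genes fell and Mael rose.

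Hormad1, chr3:95559427-95559676, plus strand: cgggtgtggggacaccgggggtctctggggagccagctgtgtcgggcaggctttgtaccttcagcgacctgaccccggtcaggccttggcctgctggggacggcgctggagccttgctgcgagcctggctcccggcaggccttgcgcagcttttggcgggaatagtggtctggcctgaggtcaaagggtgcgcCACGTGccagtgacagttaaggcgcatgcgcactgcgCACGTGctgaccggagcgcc

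Stk31, chr6:49395289-49395538, plus strand: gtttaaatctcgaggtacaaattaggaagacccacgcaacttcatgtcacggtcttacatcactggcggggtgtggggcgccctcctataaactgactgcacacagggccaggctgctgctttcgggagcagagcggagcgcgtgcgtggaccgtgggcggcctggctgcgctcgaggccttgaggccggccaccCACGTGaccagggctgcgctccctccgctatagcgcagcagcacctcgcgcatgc

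Mael, chr1:166238745-166238994, minus strand: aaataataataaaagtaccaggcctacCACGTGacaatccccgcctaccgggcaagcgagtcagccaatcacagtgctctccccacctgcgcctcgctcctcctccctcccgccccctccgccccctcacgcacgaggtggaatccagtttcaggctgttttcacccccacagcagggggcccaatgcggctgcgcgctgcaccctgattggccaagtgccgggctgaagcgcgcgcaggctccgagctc

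Methylation of these promoters was not analysed here.

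Early germ cell factors mostly fell. In the primordial germ cell list 6 of 8 fell and 1 rose, where 24.1% of all genes fell and 22.2% rose. The median was -2.86 (without #3, 7 fell and the median was -3.07). Alkaline phosphatase (Alpl), a stain for both naive and germ cells, read 59.3, 61.3, 61.3 and 59.3 in mESC and 0.54, 1.21 and 0.806 in EpiLC (log2 fold change -5.06, SE 0.14, adjusted p = 4.03e-07). The stem cell factor receptor Kit (20.4 to 31.5 in mESC against 0.499 to 1.32 in EpiLC, log2 fold change -3.86, adjusted p = 3.55e-06) and Dppa3, which guards methylation in the egg (30.6 to 78.4 in mESC against 0.425 to 1.5 in EpiLC, log2 fold change -4.71, adjusted p = 9.83e-06), fell as well. Tfap2c read 12.1, 12.9, 15.6 and 12.1 in mESC and 1.03, 4.31 and 1.11 in EpiLC (log2 fold change -2.32, adjusted p = 0.000518), with #3 the highest of the EpiLC. Dnd1 was the rise (0.575 to 1.77 in mESC against 2.66 to 5.54 in EpiLC, log2 fold change 1.18, adjusted p = 0.00514). Prdm1 was not called (log2 fold change -0.49, adjusted p = 0.0856). It read 1.61 to 1.69 in mESC and 0.647, 1.74 and 0.502 in EpiLC, and was called lower without #3 (log2 fold change -0.74, adjusted p = 0.00139). Of 6 tested early-embryo genes (12 listed) 4 fell, with a median of -3.07 (-2.97 without #3). The homeobox gene Crxos read 149, 170.0, 239.5 and 124 in mESC and 0.269, 0.761 and 0.757 in EpiLC (log2 fold change -6.72, SE 0.23, adjusted p = 6.86e-07), the lowest fold change of all genes named here. Pramel6 read 101, 23.2, 44.6 and 82.7 in mESC and 0.0955, 0.0912 and 0.12 in EpiLC (log2 fold change -5.65, adjusted p = 2.32e-05). Zscan4f, of the 2-cell state, read 1.97, 0.0749, 0.0242 and 1.17 in mESC and 1.18, 0.257 and 2.94 in EpiLC, with #1 and #4 above the other numbers in both states.

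Among writers and erasers of DNA methylation 3 of 8 tested genes rose and 3 fell, where 22.2% of all genes rose and 24.1% fell. The median was -0.21 (-0.43 without #3). Beside the rises of Dnmt3a and Dnmt3b, the TET genes left in these cells fell. Tet1 read 25.3, 21.5, 23.0 and 31.8 in mESC and 6.73, 14.1 and 7.39 in EpiLC (log2 fold change -1.40, SE 0.24, adjusted p = 0.00186). Tet2 read 10.9, 10.9, 16.3 and 14.9 in mESC and 1.51, 1.66 and 1.26 in EpiLC (log2 fold change -2.51, SE 0.17, adjusted p = 1.04e-05). Tet2 was uniform across the EpiLC, whereas Tet1 was highest in #3. Tdg, the glycosylase that removes the oxidised bases, rose (2.89 to 3.60 in mESC against 6.15 to 10.6 in EpiLC, log2 fold change 1.05, adjusted p = 0.00128). The maintenance methyltransferase gene Dnmt1 read 24.3, 31.8, 36.4 and 26.9 in mESC and 14.5, 26.1 and 18.5 in EpiLC (log2 fold change -0.60, adjusted p = 0.0467). That call was lost when mESC #2, #3 or #4 or EpiLC #1 or #4 was left out, with adjusted p-values of 0.0633 to 0.209.

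Imprinted genes, which are expressed from 1 parental copy, mostly rose. Of 18 tested (22 listed) 11 were called higher and 2 lower, where 22.2% of all genes rose and 24.1% fell. The median was 1.40 (12 higher, 3 lower and 1.37 without #3). Nnat was at most 0.0773 in mESC and 17.6, 13.8 and 16.1 in EpiLC (log2 fold change 3.98, SE 0.12, adjusted p = 6.54e-07). Peg3 read 3.54, 2.82, 2.82 and 3.50 in mESC and 72.8, 121 and 61.0 in EpiLC (log2 fold change 4.31, adjusted p = 3.13e-06). The maternal non-coding RNAs of the Dlk1-Dio3 domain rose together: Meg3 (28.5 to 41.6 in mESC against 120.3 to 171 in EpiLC, log2 fold change 1.89, adjusted p = 7.21e-05), Rian (30.3 to 57.1 in mESC against 224 to 271 in EpiLC, log2 fold change 2.6, adjusted p = 3.12e-05) and Mirg (9.05 to 20.8 in mESC against 52.9 to 79.8 in EpiLC, log2 fold change 2.23, adjusted p = 0.00027). The paternal gene of that domain, Dlk1, stayed at or below 0.241 in all 7 libraries. Peg10 read 12.1, 6.65, 5.83 and 15.9 in mESC and 30.6, 147 and 32.6 in EpiLC (log2 fold change 2.38, adjusted p = 0.00838, and 1.65 without #3). The genes that fell were the zinc finger gene Plagl1 (17.3 to 27.0 in mESC against 1.83 to 1.99 in EpiLC, log2 fold change -2.92, adjusted p = 3.24e-06) and the receptor gene Igf2r (11.2 to 18.0 in mESC against 8.03 to 8.96 in EpiLC, log2 fold change -0.76, adjusted p = 0.00622). Total levels do not show which parental copy was read.

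Xist rose, and the median X-linked level relative to autosomal genes was lower in every EpiLC library than in any mESC library. Xist (chromosome X, 103460366-103483254), the RNA that coats the inactive X chromosome, read 0.679, 0.253, 0.0657 and 1.09 in mESC and 27.5, 33.9 and 20.7 in EpiLC (log2 fold change 4.24, SE 0.26, adjusted p = 6.29e-06). Every EpiLC library was above every mESC library. Of 6 tested genes of the X-inactivation centre 3 rose and 1 fell, where 22.2% of all genes rose and 24.1% fell. The median was 0.42 (0.44 without #3). The Xist activators Jpx (0.132 to 0.418 in mESC against 1.95 to 2.30 in EpiLC, log2 fold change 1.32, adjusted p = 0.000117) and Rlim (28.6 to 39.4 in mESC against 54.9 to 64.1 in EpiLC, log2 fold change 0.76, adjusted p = 0.00265) were among the rises. The antisense gene Tsix, whose reads overlap Xist, read 2.40, 2.69, 2.51 and 3.13 in mESC and 3.8, 2.43 and 2.57 in EpiLC, with overlapping groups. Across the chromosome, 250 of 526 tested genes (47.5%) fell and 88 (16.7%) rose. Of 12189 autosomal genes 23.1% fell and 22.5% rose. The median X-linked minus the median autosomal level, in log2(scaled TPM + 1), was 0.161, -0.0238, -0.091 and 0.103 in mESC #1 to #4 and -0.444, -0.524 and -0.52 in EpiLC #1, #3 and #4. The group means were 0.0373 ± 0.115 (SD, n = 4) and -0.496 ± 0.0451 (SD, n = 3), with no overlap. Their difference of -0.533 gave p = 0.0571 in an exact two-sided permutation test, the smallest that 3 against 4 libraries can give, so the test could not reach 0.05. With no filter on low values the difference was -0.0307. That setting took in 43003 genes over all chromosomes, where 12731 passed the filter. Most were thus low genes, whose changes log2(scaled TPM + 1) understates.

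Metabolic genes changed singly more than as lists. For the lists of this paragraph, the shares over all genes were 22.2% higher and 24.1% lower. Of 17 glycolysis genes 4 rose and 3 fell (median 0.39). Without #3, 2 rose and 4 fell (median 0.24). Hexokinase 1 (Hk1, 21.4 to 22.2 in mESC against 3.01 to 4.28 in EpiLC, log2 fold change -2.32, adjusted p = 3.25e-06), the phosphofructokinase Pfkp (35 to 47.2 in mESC against 3.15 to 4.54 in EpiLC, log2 fold change -3.08, adjusted p = 3.1e-06) and the lactate dehydrogenase subunit Ldhb (149 to 252 in mESC against 57.9 to 75.4 in EpiLC, log2 fold change -1.41, adjusted p = 0.000722) fell. The glucose transporter Slc2a1 rose (31.6 to 52.4 in mESC against 72.8 to 127 in EpiLC, log2 fold change 1.19, adjusted p = 0.00383). Pgk1 followed the split among the mESC, with 100.2, 235, 203 and 90.5 in mESC and 176, 224 and 227 in EpiLC (log2 fold change 0.52, adjusted p = 0.254). In the oxidative phosphorylation list 1 of 14 fell (median -0.13, or -0.032 without #3). It was Cox5a, with 166, 184, 238 and 148 in mESC and 105, 97.4 and 111 in EpiLC (log2 fold change -0.79, adjusted p = 0.00663). In the threonine and one-carbon list 1 of 11 rose and 2 fell (median 0.026). Without #3 the rise was lost, 3 fell and the median was -0.21. Threonine dehydrogenase (Tdh), on which mESC depend, read 128, 201, 193 and 141 in mESC and 3.00, 9.59 and 6.26 in EpiLC (log2 fold change -4.60, SE 0.32, adjusted p = 1.27e-05). Of 12 tested G1 cell cycle genes 2 rose and 3 fell (median 0.25, with 3 rises, 3 falls and 0.15 without #3). Cyclin D2 (Ccnd2) was at most 0.333 in mESC and 3.98, 7.53 and 3.02 in EpiLC (log2 fold change 2.24, adjusted p = 0.000147), and its kinase Cdk6 rose (2.12 to 2.45 in mESC against 7.51 to 10.6 in EpiLC, log2 fold change 1.66, adjusted p = 3.2e-05). The kinase gene Cdk2 was among the falls (21.8 to 30.5 in mESC against 11.6 to 17.2 in EpiLC, log2 fold change -0.82, adjusted p = 0.00474).

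By size alone, the highest fold change belonged to Car4, a membrane-bound carbonic anhydrase. It was at most 0.195 in mESC and 194, 105 and 151 in EpiLC (log2 fold change 7.05, SE 0.20, adjusted p = 4.56e-07). The 12 highest also held Tagln, Krt19, Krt18, Lin28a and Cldn6, given above, and the interferon-inducible GTPase genes Gbp2, at most 0.0966 in mESC and 33.9, 71.6 and 30.6 in EpiLC (log2 fold change 5.36, adjusted p = 2.89e-06), and Gbp2b (0 to 0.0385 in mESC against 18.0 to 41.9 in EpiLC, log2 fold change 4.68, adjusted p = 4.11e-06). These are close copies on chromosome 3 whose reads can be split between them, so their separate values are uncertain. Thrombospondin 1 (Thbs1), a matrix glycoprotein, rose (0.24 to 0.922 in mESC against 45.6 to 73.4 in EpiLC, log2 fold change 5.22, adjusted p = 9.68e-07), and so did the calcium-binding S100a6 (3.81 to 7.75 in mESC against 120.1 to 210.1 in EpiLC, log2 fold change 4.63, adjusted p = 3.29e-06). Skeletal actin (Acta1) was at most 0.0832 in mESC and 54.3, 14.3 and 27.6 in EpiLC (log2 fold change 4.78, adjusted p = 1.99e-05), with #3 the lowest of the EpiLC, as for Tagln and Tpm1. Igfbp3, which binds insulin-like growth factors, was at most 0.563 in mESC and 32.1, 114 and 34.8 in EpiLC (log2 fold change 5.17, adjusted p = 2.03e-05, and 4.53 without #3). At the other end, beside Crxos, Dazl and Pramel6, Fam25c read 115, 229, 210.3 and 99.1 in mESC and 1.11, 1.75 and 1.74 in EpiLC (log2 fold change -5.94, adjusted p = 3.13e-06). The other 8 were the water channel Aqp3, aspartoacylase Aspa, the junctional protein Jam2, the autophagy receptor Calcoco2, the ETS factor Spic, the surface protein Ly6a, the predicted gene Gm38226 and the protease Mep1b. Their log2 fold changes ran from -5.83 for Aqp3 to -5.15 for Mep1b. All 8 read at least 23.2 in every mESC library and at most 4.18 in any EpiLC library.

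In amount, cytoskeletal genes led the rises. The largest gains in mean scaled TPM among called protein-coding genes were those of beta-actin (Actb, 458 to 801 in mESC against 1488 to 1905 in EpiLC, log2 fold change 1.57, adjusted p = 0.00112), Tpm1, gamma-actin (Actg1, 163 to 273 in mESC against 652 to 812 in EpiLC, log2 fold change 1.78, adjusted p = 0.000325), the myosin light chain Myl6 (156 to 225 in mESC against 481 to 746 in EpiLC, log2 fold change 1.70, adjusted p = 0.000273), Tpt1 (479.9 to 549 in mESC against 886 to 908 in EpiLC, log2 fold change 0.80, adjusted p = 0.00342) and the actin-sequestering thymosin Tmsb10. Tmsb10 read 365, 479, 563 and 289.6 in mESC and 937, 542 and 910.2 in EpiLC (log2 fold change 0.91, adjusted p = 0.0335). It lost its call when mESC #1 or #4 or EpiLC #1 or #4 was left out, with adjusted p-values of 0.0756 to 0.113. The largest losses began with Dppa5a, an RNA-binding protein of naive cells, which read 1829, 2631, 1931 and 1486 in mESC and 260.2, 139 and 466 in EpiLC (log2 fold change -2.91, adjusted p = 0.000504). The metal-binding metallothioneins Mt2 (1929.7 to 2778 in mESC against 446 to 1340.2 in EpiLC, log2 fold change -1.56, adjusted p = 0.00905) and Mt1 (1429 to 2011 in mESC against 366 to 1003 in EpiLC, log2 fold change -1.42, adjusted p = 0.00959), the chaperone Hsp90aa1 (1072 to 1446 in mESC against 509 to 641 in EpiLC, log2 fold change -1.17, adjusted p = 0.00175), the X-linked homeobox gene Rhox5 (403 to 489 in mESC against 56.6 to 87.8 in EpiLC, log2 fold change -2.62, adjusted p = 1.02e-05) and the helicase Eif4a2 (463 to 580.2 in mESC against 186 to 311 in EpiLC, log2 fold change -1.0, adjusted p = 0.00499) made up the rest.

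Markers of other cell types were counted next. For the lists of this paragraph, the shares over all genes were 22.2% higher and 24.1% lower. No fibroblast gene passed the filter (0 of 8), and their summed level was 0.878 to 2.39 in mESC and 2.51 to 3.77 in EpiLC. Of the primitive endoderm list 5 of 10 were tested, 2 rose and 1 fell (3 and 1 without #3), with a summed level of 14.3 to 19.4 in mESC and 24.3 to 33.8 in EpiLC. Its rises were the collagen gene Col4a1 (0.955 to 2.05 in mESC against 4.84 to 7.97 in EpiLC, log2 fold change 1.52, adjusted p = 0.00045) and Fgfr2, its fall the laminin gene Lama1 (8.13 to 10.8 in mESC against 0.304 to 0.779 in EpiLC, log2 fold change -2.82, adjusted p = 3.69e-06). Of its defining factors, Gata4 read 0.102 to 0.605 in mESC and 0.745 to 0.84 in EpiLC. Gata6 read 1.19, 0.204, 0.335 and 1.18 in mESC and 0.11, 1.49 and 0.116 in EpiLC, highest in #3. Of the trophectoderm list 4 of 10 were tested, 2 rose (Krt7 and Eomes) and 1 fell (Tfap2c), with 3 rises and 1 fall without #3. Its summed level was 17.7 to 19.7 in mESC and 9.14 to 22.9 in EpiLC, and the defining factor Cdx2 read at most 0.951. Of the neural list 2 of 10 were tested and Nes, a filament gene, rose (1.1 to 1.55 in mESC against 32.4 to 52.0 in EpiLC, log2 fold change 4.12, adjusted p = 1.2e-06). The neural factors Sox1 and Pax6 stayed at or below 0.314 in all 7 libraries.

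Several mesendoderm genes were high in EpiLC mutant #3 and low in the other 6 libraries. The 10 listed genes summed to 4.13 to 5.59 scaled TPM in mESC, to 4.84 in EpiLC #1, to 5.60 in EpiLC #4 and to 105 in EpiLC #3. As background, these genes mark the primitive streak, where epiblast cells turn into mesoderm and endoderm under Wnt, Nodal and FGF signals. T (brachyury), the defining streak gene, read 0.0758, 0.607, 0.0849 and 0.14 in mESC, 1.31 and 1.22 in EpiLC #1 and #4 and 67.4 in #3. The homeobox gene Mixl1 read 9.20 in #3 and 0.0746 and 0.0922 in #1 and #4. Lhx1 read 5.36 against 0.0632 and 0.162, and Evx1 2.04 against 0.0631 and 0.0999. All 4 are transcription factors of the streak. Among endoderm factors, Foxa2 read 3.77 in #3 against 0.0747 and 0.0372, and Sox17 2.40 against 0 and 0.135. Eomes, which acts in both germ layers, read 12.4 against 2.37 and 3.27 and was called higher in the transition (log2 fold change 1.54, adjusted p = 0.0174, and 0.91 without #3). Goosecoid (Gsc) read 2.63, 3.58, 4.20 and 2.34 in mESC and 0.148, 3.86 and 0.123 in EpiLC, so that #3 kept the level of the mESC. The later mesoderm genes did not share this pattern. Mesp1 read 0.153 in #3 against 0 and 0.0271 in #1 and #4, and Kdr 0.119 against 0.0488 and 0.0609. Tbx6 was lowest in #3 (0.337 against 0.699 and 0.509).

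Several signals of the streak were high in EpiLC #3 too. Fgf8 read 19.6 in #3 against 0.56 and 0.37 in #1 and #4, Wnt8a 9.18 against 0.221 and 0.424, and the antagonist Cer1 1.86 against 0.0343 and 0.0505. Sp5, Wnt3, Nodal and Lefty1, given above, were also highest there. Bmp4, given above as well, was lowest there (3.41 against 8.64 and 3.63). The mesenchymal cadherin Cdh2 read 8.14 against 0.31 and 0.58, while Cdh1 was at 129.9 against 102 and 89.5. With 1 library, these are values without a test.

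**Figure D4:**
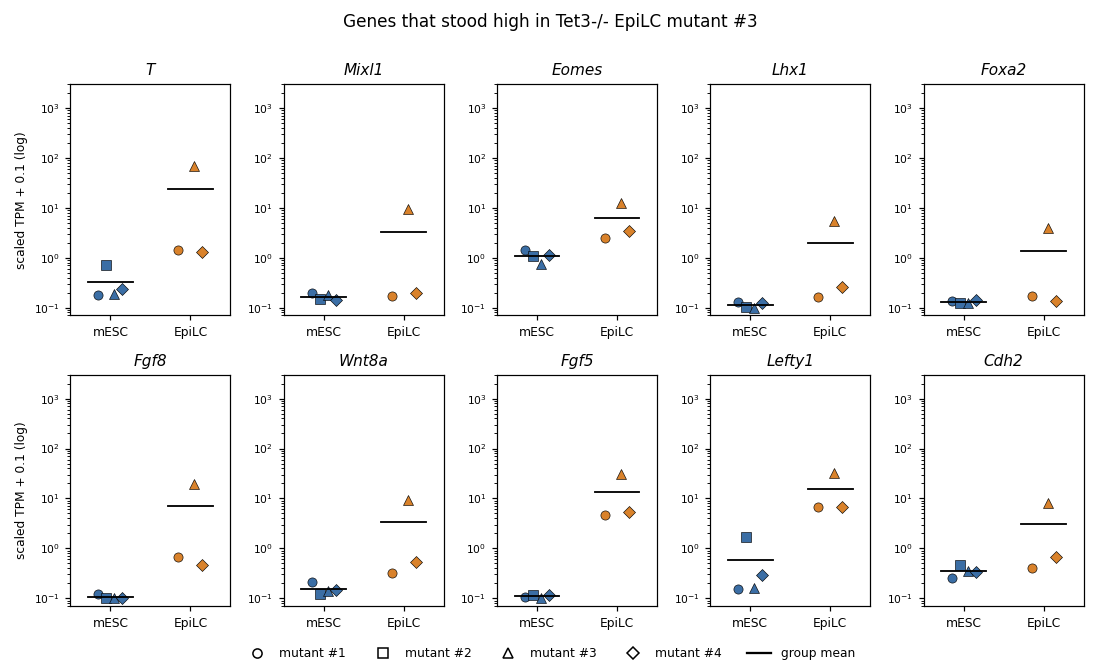
Scaled TPM plus 0.1 (log axis) of 10 genes in each Tet3-/- library, with symbols for the mutant number and lines for group means. The EpiLC #3 triangle lies above both other EpiLC libraries in every panel, with T at 67.4 against 1.31 and 1.22.

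The 10 genes in which EpiLC #3 stood highest relative to #1 and #4, among genes with a mean of at least 5 in EpiLC, were Tpt1-ps3, Fst, Pim2, Rtl8c, Trh, Rtl8b, Psors1c2, Fgf5, Irgm1 and Rtl8a. That mean includes #3. Without #3 the mean was 6.60 for Rtl8b and 5.36 for Rtl8a. The others had at most 4.88 and passed the filter only through #3. Follistatin (Fst), which binds and neutralises Activin, read 33.5 against 1.40 and 2.51. The kinase gene Pim2 read 33.2 against 2.39 and 2.66, and the gene for thyrotropin-releasing hormone, Trh, 24.8 against 1.55 and 3.33. The X-linked Rtl8a (31.2 against 4.89 and 5.82), Rtl8b (43.2 against 5.71 and 7.49) and Rtl8c (20.6 against 0.955 and 1.81), derived from a retrotransposon, are close copies whose reads can be shared. Tpt1-ps3, a pseudogene of Tpt1, was listed at 0 in #1 and #4 and read 94.3 in #3, which may also depend on how reads were shared with Tpt1. The 10 in which it stood lowest were the small RNA genes Rnu3b1, Gm24924 and Gm26244 and the predicted genes Gm10722, Gm10801, Gm21738, Gm10800, Gm10717, Gm10721 and Gm10719. Gm10800 read 7408, 6936, 1515 and 7162 in mESC and 12153, 376 and 26502 in EpiLC. The library numbered #3 was the lowest in both states for all 7 predicted genes, and reads of such repeated genes can be shared among copies.

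The transition was then compared with that of wild-type XX cells, as a limma interaction over the 13 libraries of the LF2 strain. Of 12731 genes, 11 (0.0864%) had a higher and 22 (0.173%) a lower change in Tet3-/- than in XX cells at an adjusted p under 0.05. The count depended on single libraries and on the scaling. Leaving out 1 library gave 1 to 103 higher and 5 to 92 lower, with 103 and 92 when XX mESC replicate 2 was left out. Without EpiLC #3, and over the same genes, it was 34 and 59. With TPM unscaled limma called 0 and 0, and 929 genes had an unadjusted p under 0.05. On simulated data with 200 changed genes, 43.5% of differences of 1 log2 unit and 86% of 2 units were recovered, so the small count does not show that the other genes moved alike.

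Sox2 fell in both genotypes and further in Tet3-/- cells. On the scale shared by the 13 libraries it read 80.6, 76.1 and 77.7 in XX mESC, 15.7, 15.0 and 15.9 in XX EpiLC, 96.0, 98.8, 86.8 and 89.7 in Tet3-/- mESC and 6.49, 6.87 and 8.12 in Tet3-/- EpiLC (difference -1.27, SE 0.14, adjusted p = 0.00319). The Tet3-/- libraries were thus above the XX libraries before the transition and below them after it, with no overlap. Sox2 was called under 16 of 18 alternative settings. Nr5a2, an orphan receptor of the naive network, also fell in both and read 1.17, 1.45 and 1.14 in XX EpiLC and 0.196, 0.635 and 0.267 in Tet3-/- EpiLC (difference -1.0, SE 0.16, adjusted p = 0.0298). It was called under 4 of 18 settings. Laptm5, a lysosomal membrane protein (chromosome 4, 130913125-130936141), read 9.21, 15.8 and 9.01 in XX mESC, 11.3, 14.2 and 13.2 in XX EpiLC, 9.43, 13.9, 12.7 and 12.8 in Tet3-/- mESC and 1.19, 2.11 and 1.85 in Tet3-/- EpiLC (difference -2.49, SE 0.29, adjusted p = 0.00551). It was low in Tet3-/- EpiLC and higher in every library of the other 3 groups, and it was called under 17 of 18 settings. The tripartite-motif gene Triml1 (chromosome 8, 43129807-43141486) read 13.8, 18.9 and 14.9 in XX mESC, 11.8, 14.2 and 14.1 in XX EpiLC, 19.4, 21.9, 19.5 and 21.5 in Tet3-/- mESC and 3.77, 3.17 and 4.60 in Tet3-/- EpiLC (difference -1.94, SE 0.19, adjusted p = 0.00184), called under 17 of 18. Its neighbour Triml2 read 22.2, 24.7 and 23.9 in XX EpiLC and 8.90, 9.96 and 11.0 in Tet3-/- EpiLC (difference -1.16, SE 0.14, adjusted p = 0.00606), called under 16 of 18. Cdyl2, of the chromodomain family (chromosome 8, 116574400-116732991), read 8.94, 7.90 and 9.49 in XX mESC, 6.05, 6.81 and 7.04 in XX EpiLC, 9.34, 9.67, 8.50 and 10.5 in Tet3-/- mESC and 1.62, 1.66 and 1.77 in Tet3-/- EpiLC (difference -1.61, SE 0.14, adjusted p = 0.00103), called under 16 of 18. The septin gene Sept1 read 9.52, 9.90 and 8.59 in XX EpiLC and 3.11, 3.51 and 3.35 in Tet3-/- EpiLC (difference -1.62, SE 0.24, adjusted p = 0.0248), called under 10 of 18. The glutathione transferase gene Gstp2 fell in both genotypes and read 20.9, 20.8 and 18.6 in XX EpiLC and 3.15, 3.54 and 8.19 in Tet3-/- EpiLC (difference -2.01, SE 0.35, adjusted p = 0.0397), called under 4 of 18. Triml2 and Cdyl2 lie outside the rule for named genes and were chosen after their values were seen.

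In the other direction, the X-linked Xlr3a (chromosome X, 73086293-73097095) read 48.7, 35.4 and 47.8 in XX mESC, 5.03, 5.44 and 4.73 in XX EpiLC, 55.1, 54.0, 51.8 and 51.8 in Tet3-/- mESC and 40.6, 22.3 and 29.1 in Tet3-/- EpiLC (difference 2.06, SE 0.25, adjusted p = 0.00606), called under 16 of 18 settings. It belongs to a family of close copies whose reads can be shared. Fam213a read 6.21, 5.87 and 5.75 in XX EpiLC and 15.4, 8.11 and 12.0 in Tet3-/- EpiLC (difference 1.60, SE 0.25, adjusted p = 0.0248), called under 6 of 18. The predicted gene Gm35248 started lower in Tet3-/- mESC, with 6.55, 6.50 and 5.52 in XX and 1.43, 0.866, 2.61 and 1.16 in Tet3-/- mESC (difference 1.52, SE 0.27, adjusted p = 0.045), called under 3 of 15. Cxcl10, an interferon-inducible chemokine, rose in both genotypes and read 1.65, 1.61 and 1.44 in XX EpiLC and 6.15, 7.21 and 4.65 in Tet3-/- EpiLC (difference 1.37, SE 0.19, adjusted p = 0.0132), called under 7 of 15. Cnn1, of the contractile list, rose further in Tet3-/- cells (difference 0.94, SE 0.15, adjusted p = 0.0298), called under 3 of 15. Of the 316 different list genes, those that passed this test were Sox2, Nr5a2, Triml1 and Cnn1.

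**Figure D5:**
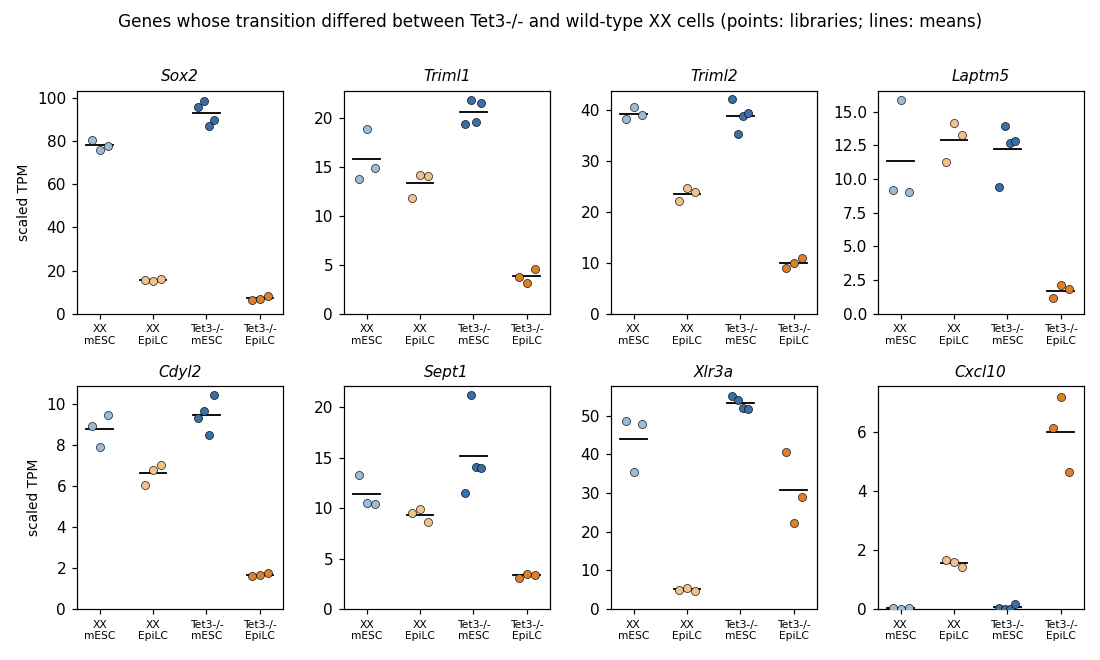
Scaled TPM (linear axis from 0, scaled over 13 libraries) of 8 genes in wild-type XX and Tet3-/- mESC and EpiLC; points are libraries and lines group means. Sox2, Triml1, Triml2, Laptm5, Cdyl2 and Sept1 are lower in Tet3-/- than in XX EpiLC, and Xlr3a and Cxcl10 higher, with no overlap between the EpiLC groups.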

How the data were processed

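Total RNA, depleted of ribosomal RNA and made into stranded libraries per the labels' protocols, was sequenced from mouse LF2 cells. The submitters' processing notes name FastQC 0.11.7, Trimmomatic 0.35, Salmon 1.1.0 and GRCm38, with no role or order. The deposited table holds TPM values per transcript, as the authors made them, and each library sums to 1000000. TPM keeps no depth, so the precision rests on the spread between libraries.

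Transcript rows were summed per gene with GENCODE M21: of 140948 IDs 139357 matched, and 495 more after dropping the version, and the unmatched held at most 0.215% of TPM in a library. Genes that reached a TPM of 1 in 3 or more of the 7 Tet3-/- libraries were kept, scaled by median of ratios and tested on log2(scaled TPM + 1) with limma 3.58.1 in R 4.3.3 (eBayes with trend, Benjamini-Hochberg adjustment over all 12731 genes, threshold 0.05). The difference from wild-type XX cells is the interaction term over the 13 LF2 libraries. The X-to-autosome ratio was tested by exact permutation in SciPy 1.17.1.

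Named genes are the 12 highest and 12 lowest fold changes among called genes that do not overlap between states and have a mean of at least 5 in the higher one, the 6 largest rises and falls in level, the 4 highest and lowest in the interaction, the 10 highest and lowest in EpiLC #3, list genes, Tet3 and Xist. The members, the 27 gene lists and the tests were chosen with earlier results of these data known. On simulated data, 200 genes were changed by known amounts, of which 63% were recovered at 1 log2 unit and 93% at 2 in the transition. In the real transition 46.3% of genes were called, far more than were changed here, so these rates need not hold there. The simulated noise was normal with a single spread per gene, so no simulated library stood apart as EpiLC #3 did. Alternatives changed the pseudocount, filter, scaling, libraries, trend, call rule and block.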

Additional observations from a re-analysis of the deposited data

Results flagged for a closer look

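Among the 4 mESC libraries, 138 values were checked for 1 library far from the others, and 7 were marked. Chance gives about 5% for independent values, and the number marked is near that. Genes of a library can move together, so this comparison does not show whether the marks arose by chance. Of the 7, 6 lay in mESC #2. It was the highest library for the ERK-response genes Dusp6 (1.05 scaled TPM), Etv4 (2.34) and Etv5 (57.7) and for the Nodal antagonist Lefty1 (1.58). It also stood apart for Ldhb (252 scaled TPM) and for Mep1b (28.9). In mESC #3 the imprinted RNA Meg3 was low (28.5). The transitions of the 6 genes marked in mESC #2 kept their calls without that library.

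The transition of 33 genes differed between Tet3-/- and XX cells by the interaction test in limma. The differences of log2 fold changes (Tet3-/- minus XX) were 2.06 for Xlr3a, 1.60 for Fam213a, 1.52 for Gm35248, 1.37 for Cxcl10 and 0.94 for Cnn1. They were -2.49 for Laptm5, -2.01 for Gstp2, -1.94 for Triml1, -1.62 for Sept1, -1.27 for Sox2 and -1.0 for Nr5a2.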

How the results depend on the processing

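The count of genes that rose in the transition (2827) became 1717 with a filter of TPM 5, 1312 with TPM as deposited, 1878 with rescaling over the nuclear protein-coding genes and 1274 with a log2 fold change of 1 or more required too. The count that fell (3063) became 1921 with the filter of 5 and 1393 with the fold rule. Leaving out 1 library and filtering anew gave 2013 to 2934 rises and 2382 to 3220 falls, and with the genes kept, an alternative added after seeing the data, 2322 to 3239 and 2559 to 3410. In the difference from XX cells (11 higher, 22 lower), TPM as deposited gave 0 and 0, a pseudocount of 0.1 gave 5 higher, and all 19 libraries in 1 fit gave 31 and 58. Leaving out 1 library gave 1 to 103 higher and 5 to 92 lower, and without EpiLC #3 over the same genes 34 and 59. The cause of these moves was not tested, apart from the smaller number of genes or calls that a stricter filter or rule allows.

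Deviations from the group means correlated between same-numbered libraries at r = 0.258 for #1, 0.255 for #3 and -0.119 for #4. Differently numbered libraries ran from -0.327 (EpiLC #3 with mESC #1) to 0.247 (EpiLC #4 with mESC #1). Since pairs with and without the same number reached like values, this check cannot decide whether the numbers are pairs. The main fit did not pair them. A replicate block on the number gave 2506 rises and 2755 falls in the transition, and 0 higher and 3 lower in the difference, where 939 genes had an unadjusted p under 0.05.

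Over 133 named genes and all their alternatives, 2385 of 2445 fold changes kept direction and call, 37 lost the call, 12 gained it and 11 reversed. The reversals were of genes that were not called. With 1 library left out, Klf5 ran from -0.65 (without EpiLC #3) to 0.16 (without #1, or 0.13 with genes kept), and gave 0.0082 without #4. Otx2 ran from -0.17 to 0.053 (without EpiLC #3, or 0.020 with genes kept) and gave 0.0022 without mESC #1. Sp5 ran from -1.21 (without EpiLC #3) to 0.42 (without #1, or 0.40 with genes kept), and gave 0.36 without #4 (0.34 with genes kept). Sycp3 gave -0.014 without #4 with genes kept.

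Of 372 list medians under an alternative, 323 moved by less than 1 SD of that median over the EpiLC libraries, 37 moved further and 12 reversed. The LIF list gave -0.093 with TPM as deposited and -0.028 to 0.14 with 1 library left out, lowest without mESC #4. The Wnt list gave -0.017 without EpiLC #3 with genes kept. The methylation machinery ran from -0.39 without EpiLC #3 to 0.10 without #1 (0.069 with genes kept), and oxidative phosphorylation from -0.25 to 0.0017 without EpiLC #3. The threonine list gave -0.18 with TPM as deposited, -0.084 with the protein-coding rescaling, and -0.18 (without EpiLC #3, or -0.21 with genes kept) to 0.21 with 1 library left out. The X-to-autosome difference (-0.533) was -0.0307 with no filter on low values, where most genes were low, and -0.492 to -0.614 otherwise.

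These limits hold throughout: 3 and 4 libraries of unknown independence, 1 EpiLC library that stands apart, unknown depth, and a scaling that assumes a stable median gene.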
